A study of Saccharomyces cerevisiae with 21 samples.

Results

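The comparison described here set the 3 ribose-seq libraries of rnh201-G42S yeast against the 6 ribose-seq libraries of wild-type (WT) yeast. They were chosen by the genotype in their labels and make up 9 of the 21 samples of the study. Another 8 ribose-seq libraries came from other RNase H2 genotypes. The remaining samples were whole-genome sequencing, taken here as the source of the DNA depth of each genotype. All cells were Saccharomyces cerevisiae BY4742, a haploid laboratory strain of mating type alpha, grown to stationary phase. WT cells carried intact RNase H2 genes. The mutant carried the G42S amino acid change in RNH201, made in its own chromosomal gene by the delitto perfetto method of genome editing and described by the submitters as orthologous to a change found in Aicardi-Goutières syndrome, an inherited inflammatory disease in humans. Nothing in the labels says whether libraries of a genotype came from separate cultures or clones, so the p-values below measure the spread between libraries, which may be technical. The substitution itself cannot be checked with these values, which hold positions and not bases.

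RNase H2 is the nuclear enzyme that cuts DNA beside single ribonucleotides that DNA polymerases have built in, and so starts ribonucleotide excision repair. It also cuts RNA in longer RNA/DNA hybrids. Rnh201 is its catalytic subunit, and the design text states that the engineered changes impair the first activity and leave cutting of long hybrids possible. In yeast, ribonucleotides in mitochondrial DNA are not removed by RNase H2. Ribose-seq captures DNA ends that carry a ribonucleotide and maps each to a base and a strand. How the enrichment factor deposited for a position was formed is not given in the sources used here. Working from the values, it was taken as the number of ribose-seq reads there divided by the DNA depth of the same genotype. The values are scaled, separately in nuclear and mitochondrial DNA, so that both strands together average about 1 per base pair. An enrichment factor therefore describes how the ribonucleotides of a library are distributed, not how many there are. The whole read numbers behind the enrichment factors were recovered from the values and are called reads below. Because sequencing reads can be copies of the same molecule, intervals and floors computed from them cover counting error only.

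The mutant and WT libraries differed most in how many reads fell in nuclear DNA. The mutant libraries held 979441, 1456297 and 4112513 nuclear reads in replicates 1, 2 and 3. The WT libraries held 1059, 769, 8768, 7125, 10114 and 38581 nuclear reads in replicates 1 to 6. Mitochondrial reads were 361613, 401487 and 1600433 in the mutant. They were 1148980 in WT replicate 6 and 14513 to 90479 in the other WT libraries, so the genotypes overlapped through WT replicate 6 alone. Per kb, nuclear DNA held 81.3, 120.9 and 341.4 reads in the mutant and 0.0638 to 3.20 in WT. Chromosomes and wide windows are compared below because WT positions were this sparse.

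**Figure D1:**
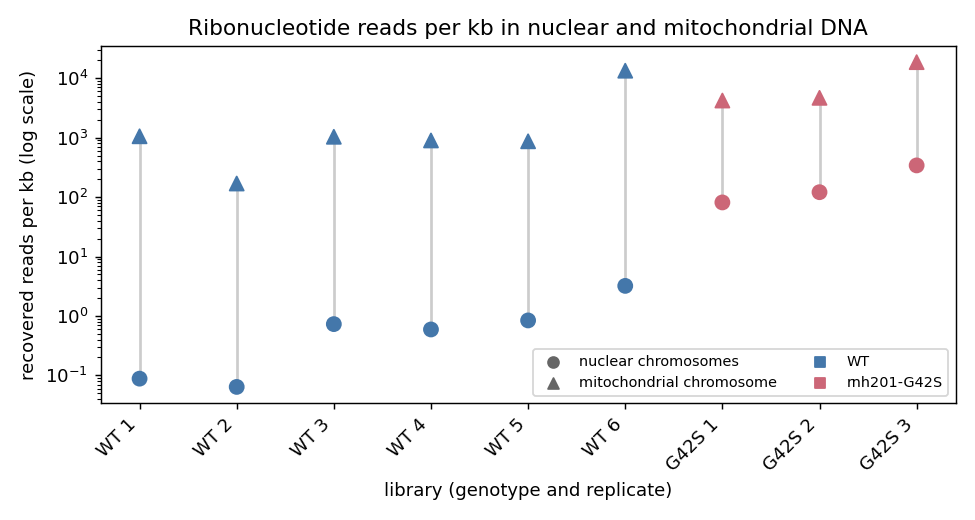
Recovered reads per kb on a log axis for the 6 WT (blue) and 3 rnh201-G42S (red) libraries, in nuclear DNA (circles) and mitochondrial DNA (triangles), joined by a line within a library. The nuclear circles of the mutant lie between 81.3 and 341.4 reads per kb and those of WT at or below 3.20. The mitochondrial triangles of the genotypes overlap through WT replicate 6 alone.

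Sequencing a library more deeply raises nuclear and mitochondrial reads alike, so their densities were compared as a ratio within each library, with reads divided by DNA depth in both compartments. On a log2 scale this density ratio, nuclear over mitochondrial, was 0.68, 1.11 and 0.57 in mutant replicates 1, 2 and 3. In WT replicates 1 to 6 it was -9.62, -7.20, -6.45, -6.67, -6.01 and -8.00. All mutant libraries lay above all WT libraries. The means were 0.79 ± 0.28 (SD, n = 3) and -7.32 ± 1.32 (SD, n = 6), a difference of 8.11. The two-sided exact permutation test gave p = 0.0238, the smallest value that 3 libraries against 6 allow, and p = 0.0595 adjusted over the 5 library-wide measures tested. That adjusted value is above 0.05, which the design could go below only if more of the 5 measures gave the smallest p.

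The DNA depth that enters this ratio also differed between the genotypes. Depth was recovered only at positions with a ribose-seq value in that genotype, and medians of depth here and below cover those positions. In nuclear DNA these were 62360 positions in WT and 3335007 in the mutant. The median depth on the mitochondrial chromosome was 70.3 times the nuclear median in the DNA sample of the mutant and 13.9 times in that of WT. Without division by DNA depth, the log2 ratio of reads was -5.58 ± 0.27 (SD, n = 3) in the mutant and -11.33 ± 1.30 (SD, n = 6) in WT, still without overlap, and the difference was 5.75. One DNA sample stood for each genotype, so the spread of its depth between cultures was not measured.

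The mitochondrial profiles split the libraries in a way that cut across genotype, and the nuclear results are given within each side of that split too. Clustering all 17 ribose-seq libraries on their mitochondrial signal in 100-bp windows by strand placed WT replicates 1, 3 and 6 and mutant replicates 1 and 3 in a set here called A, and WT replicates 2, 4 and 5 and mutant replicate 2 in a set called B. Windows of 500 bp gave the same sets, but windows of 1000 bp, tried after seeing the data, left WT replicate 1 apart from the other 8 libraries. The submitters fragmented the DNA with several sets of restriction enzymes, and which library received which set is not given in the sources used here. Each set holds both genotypes. In set A the log2 density ratio was higher in the mutant by 8.65, and in set B, with 1 mutant library, by 7.73. Library numbers in the titles fall in series of 100, 200 and 300, and among the 200s, with 2 mutant and 4 WT libraries, the difference was 7.67.

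Nuclear ribonucleotides in the mutant were spread over more positions than in WT. The measure is the number of equally used positions that would give the same chance for a pair of reads to share a position and strand. It was estimated so that read number alone does not bias the chance of sharing. On a log2 scale it was 17.67, 18.48 and 21.08 in mutant replicates 1, 2 and 3, which corresponds to 208687, 365459 and 2209215 positions. In WT replicates 1 to 6 it was 13.19, 8.21, 15.77, 15.03, 16.12 and 17.27, which corresponds at most to 158178 positions, in replicate 6. The lowest mutant value and the highest WT value were close together, but the groups did not overlap. The means were 19.08 ± 1.78 (SD, n = 3) and 14.26 ± 3.26 (SD, n = 6). The exact permutation test gave p = 0.0238 and, adjusted over the 5 measures, p = 0.0595.

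Both within WT and within the mutant, the libraries with more nuclear reads had the higher values of this measure, and the part of depth in the difference was not tested. WT replicate 2 stood apart, with 26 reads at a single position out of 769. Without it the difference fell from 4.81 to 3.60, and among the library numbers in the 200s it was 2.03. Within set A it was 3.96 and within set B 5.36.

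In mitochondrial DNA the same measure did not separate the genotypes. It was 10.88, 10.76 and 13.10 on the log2 scale in the mutant, and it ran from 9.88 through a median of 11.77 to 12.22 in WT. The groups overlapped, with mutant replicate 3 above all WT libraries and the other mutant libraries below all but WT replicate 2. The difference of means was 0.14 (exact permutation test, p = 0.881, adjusted p = 0.976).

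Nuclear signal was divided evenly between the strands in all libraries but WT replicate 2. The plus strand held 49.73%, 49.36% and 50.06% of the nuclear signal in the mutant libraries. In 5 of the 6 WT libraries it held between 49.32% and 50.79%, and in WT replicate 2 it held 35.65%. In mitochondrial DNA the plus strand held 49.31%, 46.19% and 46.02% of the signal in the mutant and between 45.87% and 48.78% in WT. The genotypes overlapped in both compartments, with exact permutation p = 0.571 for nuclear and p = 0.976 for mitochondrial DNA.

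Of the 16 nuclear chromosomes, XII and XVI had enrichment factors in all mutant libraries above those in all WT libraries. These 2 are 12.5% of the chromosomes, and none (0.0%) lay below. Chromosome XII, which carries the ribosomal DNA repeats, had a mean enrichment factor of 1.18, 1.24 and 1.21 in mutant replicates 1, 2 and 3. In WT replicates 1 to 6 it was 0.965, 0.832, 0.929, 0.972, 0.899 and 1.03. The difference of mean log2 values was 0.37. On chromosome XVI the values were 0.948, 0.970 and 0.964 in the mutant and 0.754 to 0.946 in WT, so the closest libraries of the genotypes nearly met. Both chromosomes gave the smallest possible p of 0.0238 in the exact permutation test and an adjusted p of 0.190 over the 16 chromosomes. No chromosome passed an adjusted p of 0.05, which the design could reach only if many chromosomes gave the smallest p.

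The higher enrichment factor on chromosome XII went with a lower DNA depth there. In the DNA sample of the mutant, the median depth of chromosome XII was 122, or 0.753 of the nuclear median. In the WT DNA sample it was 194, or 0.933 of the nuclear median. When reads were compared without division by DNA depth, chromosome XII had relative densities of 0.924, 0.966 and 0.936 in the mutant and 0.837 to 0.959 in WT. The groups then overlapped, the log2 difference was 0.08, and the exact permutation test gave p = 0.119. Chromosome XVI, by contrast, stayed without overlap on reads, at 0.951 to 0.980 in the mutant and 0.768 to 0.929 in WT. Without WT replicates 1 and 2 the log2 difference of enrichment factors on chromosome XVI fell from 0.14 to 0.05, still without overlap. With each detected position counted once, neither chromosome separated the genotypes. Within set A the log2 difference of enrichment factors on chromosome XII was 0.29, and within set B it was 0.47.

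DNA depth fell with chromosome length in the DNA samples of both genotypes. Across the 16 chromosomes, the relative depth correlated with length at Pearson r = -0.94 in WT and r = -0.87 in the mutant. In the mutant, relative depth ran from 1.22 on chromosome I, the shortest, to 0.895 on chromosome IV, the longest, with chromosome XII below it. In WT it ran from 1.13 on chromosome I to 0.947 on chromosome IV, with chromosome XII below it too, at 0.933. The mean enrichment factor of the mutant over chromosomes correlated with its relative DNA depth at r = -0.89, and at r = -0.80 without chromosome XII. Each enrichment factor is itself divided by that depth, so these correlations over chromosomes are descriptions of values that share a term.

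**Figure D2:**
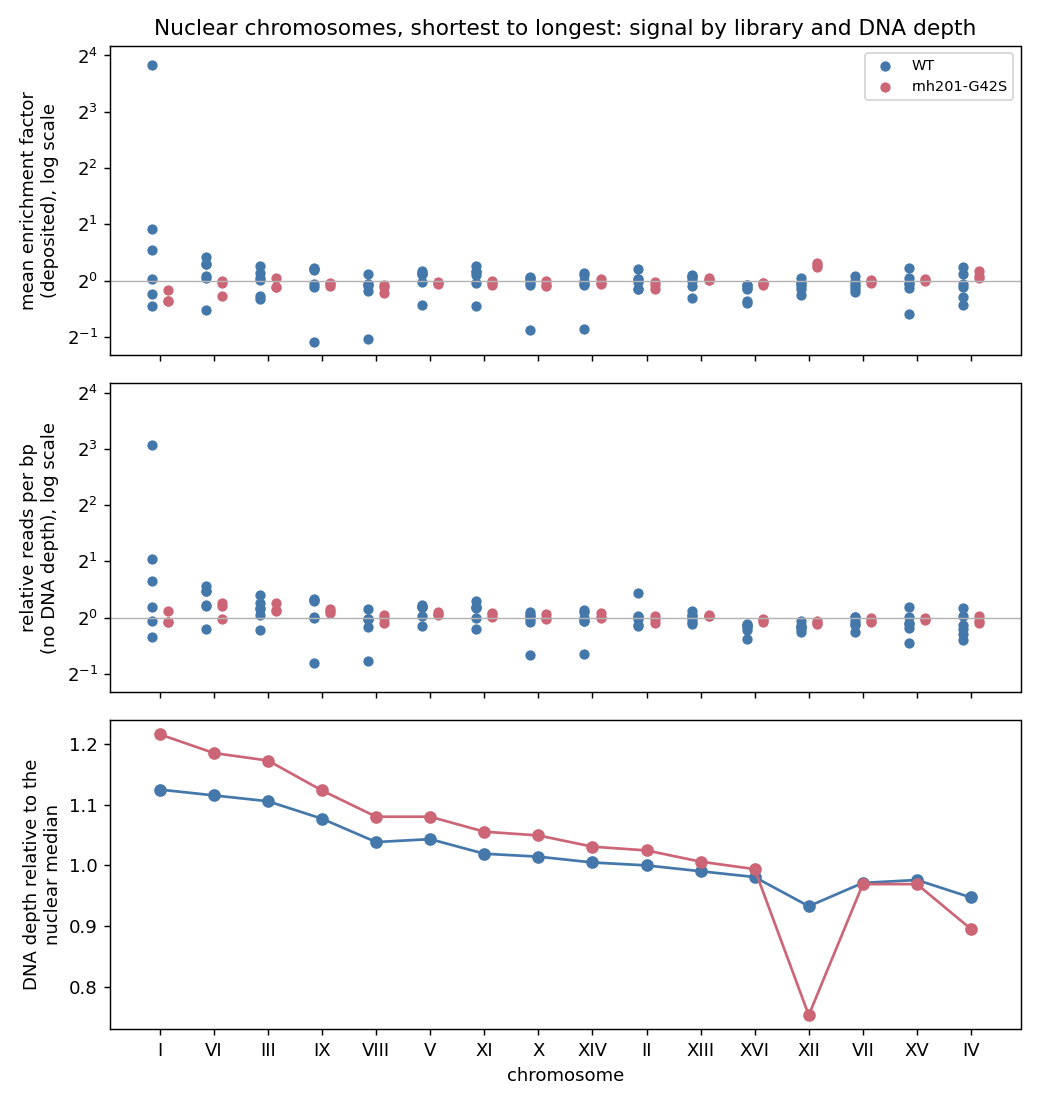
The upper panel shows the mean enrichment factor and the middle panel the relative reads per bp of each nuclear chromosome, on log2-spaced axes, for the WT (blue) and rnh201-G42S (red) libraries; the lower panel shows the DNA depth of each genotype relative to its nuclear median. Chromosomes run from the shortest to the longest. The mutant points of chromosome XII stand above the WT points in the upper panel and among them in the middle panel, where the mutant's relative DNA depth is 0.753. The single high point on chromosome I is WT replicate 2, at 14.3 in the upper panel.

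Chromosome I, the shortest, had the widest spread in WT. Its mean enrichment factor was 0.782, 0.889 and 0.772 in the mutant and 0.733, 14.3, 0.851, 1.88, 1.46 and 1.01 in WT replicates 1 to 6. In WT replicate 2, 116 of the 124 reads on the chromosome lay in its first 1000 bases, at the left chromosome end, and gave 97.0% of its signal. The mutant libraries were close to each other on every chromosome, and the SD of the 3 values was at most 0.0943, on chromosome VI.

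The plus-strand share per chromosome stayed near 50% in the mutant, from 46.4% to 52.8% over all chromosomes and libraries. In WT it ran from 0.409% on chromosome I of replicate 2 to 71.6% on chromosome XIII of replicate 1. No chromosome (0.0%) had the genotypes apart in either direction. The lowest p was 0.0476, on chromosome XVI, with an adjusted p of 0.762. On that chromosome the plus strand held 50.1% ± 0.9 (SD, n = 3) of the signal in the mutant and 47.0% ± 2.8 (SD, n = 6) in WT.

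No 50-kb window of the nuclear genome differed between the genotypes past an adjusted p of 0.05 in limma, of 240 tested (0.0% higher, 0.0% lower). At an unadjusted p under 0.05, 3 windows (1.25%) were higher and 2 (0.833%) lower in the mutant. The differences are between mean values of log2(enrichment factor + 0.1). Their median over all windows was 0.16, so values are read against that shift. Without WT replicate 2 that median was 0.05. The 95% interval of the difference had a median half-width of 0.65. In 141 of the 240 windows it lay between -1 and 1, which leaves out a 2-fold difference on this scale. In the other windows the interval reached past -1 or 1.

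**Figure D3:**
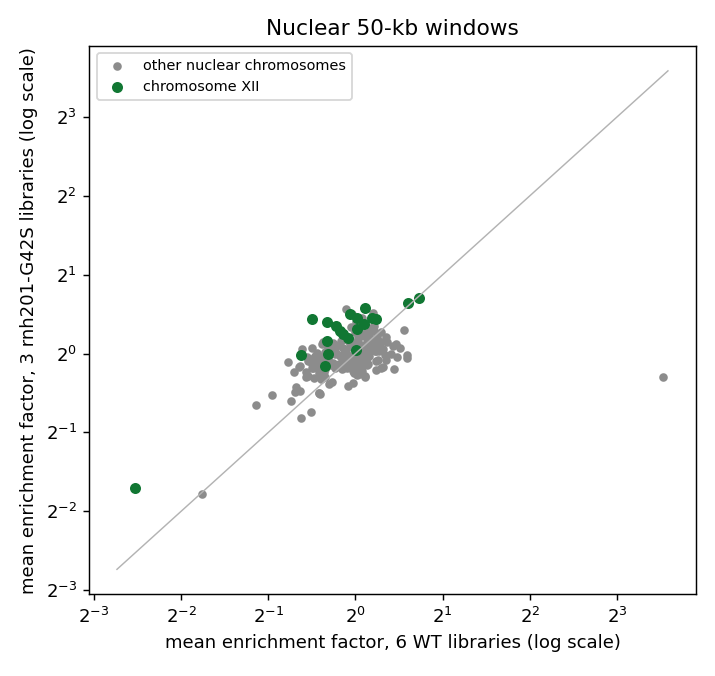
Mean enrichment factor of 240 nuclear 50-kb windows in the 6 WT libraries (horizontal, log scale) and the 3 rnh201-G42S libraries (vertical, log scale), with chromosome XII in green and a line of equal values. Most windows cluster around 1 in both genotypes, 20 of the 21 chromosome XII windows are higher in the mutant by the difference of mean log2 values, and the single point far to the right is the first window of chromosome I, which WT replicate 2 raised.

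The 5 windows with the lowest p among those higher in the mutant included 3 on chromosome XII. In the window at 600001 to 650000 of chromosome XII (sacCer2 coordinates) the enrichment factor was 1.29, 1.28 and 1.51 in the mutant and 0.465, 0.560, 0.540, 0.804, 0.799 and 1.07 in WT replicates 1 to 6. The groups did not overlap there, the log2 difference was 0.90 ± 0.27 (SE), and limma gave an unadjusted p of 0.00691 and an adjusted p of 0.945. On reads without division by DNA depth the difference in this window was 0.52. The windows at 550001 to 600000 and 50001 to 100000 of chromosome XII differed by 0.56 and 0.77. The 2 on other chromosomes were chromosome IV at 1400001 to 1450000, with 0.70, and chromosome XIII at 800001 to 850000, with 0.54.

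Chromosome XII as a whole was also compared window by window, on enrichment factors and on reads, though DNA depth was not taken per window. Of its 21 windows, 20 were higher in the mutant, with a median difference of 0.43, beside 147 of 219 windows and a median of 0.13 on the other nuclear chromosomes. On reads, 15 of the 21 were higher with a median of 0.14, beside 148 of 219 and a median of 0.12 elsewhere.

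Among the windows lower in the mutant, the lowest p was at 250001 to 300000 of chromosome XI. There the enrichment factor was 0.741, 1.01 and 0.877 in the mutant and 1.47, 1.36, 1.49, 1.64, 1.30 and 0.892 in WT. WT replicate 6, the deepest of the WT libraries, lay among the mutant values, and the log2 difference was -0.57 ± 0.20 (SE). On chromosome IX at 100001 to 150000 the mutant had 0.758, 0.981 and 0.854 and WT 1.09 to 1.31, without overlap, and the difference was -0.41. The windows at 300001 to 350000 of chromosome XIV, 100001 to 150000 of chromosome X and 400001 to 450000 of chromosome V differed by -0.39, -0.38 and -0.36. Mutant libraries lay above all WT libraries in 3 of the 240 windows (1.25%) and below all of them in 4 (1.67%).

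The lowest windows of the mutant were the last of chromosome I, at 200001 to 230206, with a mean enrichment factor of 0.291, and chromosome XII at 450001 to 500000, with 0.306. The latter holds reference copies of the ribosomal DNA. Their WT means were 0.294 and 0.173. The highest mutant window, chromosome XII at 100001 to 150000, had a mean of 1.63 and a WT mean of 1.66. Of the 5 highest mutant windows, others had lower means in WT, such as chromosome XII at 850001 to 900000, with 1.495 and 1.08, and chromosome IV at 1400001 to 1450000, with 1.48 and 0.926. The middle 90% of windows lay between 0.669 and 1.40 in mutant replicate 1 and between 0.677 and 1.37 in mutant replicate 2. It lay between 0.749 and 1.29 in mutant replicate 3, and between 0.629 and 1.36 in WT replicate 6. WT replicates 1 and 2 had windows with no signal at all.

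Of the WT libraries, replicate 6, the deepest, had the window profile most like that of the mutant. The correlation of log2 values with the mean of the mutant libraries was 0.65 for WT replicate 6 and between 0.29 and 0.36 for the other WT libraries. Each mutant library correlated with the mean of the other mutant libraries at 0.66 to 0.78. In 60 windows of 200 kb it was 0.53 for WT replicate 6, 0.32 for replicate 1 and between -0.14 and 0.09 for replicates 2 to 5. These are correlations across windows of the genome, which share mappable sequence and, within a genotype, the DNA depth. They are given as descriptions.

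Strand asymmetry, the difference of plus and minus signal over their sum, could be compared in the 211 windows of 50 kb with signal in all 9 libraries. No window passed limma's adjusted p of 0.05 (0.0% higher, 0.0% lower), and 1 window (0.474%), lower in the mutant, had an unadjusted p under 0.05. That window, chromosome XII at 200001 to 250000, had asymmetries of -0.34, -0.19 and -0.07 in the mutant and 0.36, -0.08, 0.26 and 0.06 in WT replicates 3 to 6, while WT replicates 1 and 2 had reads on the plus strand alone. In 209 of the 211 windows the 95% interval of the difference lay between -1 and 1, and its median half-width was 0.49. Asymmetry itself runs from -1 to 1, so a difference of asymmetries can reach past those bounds. Mutant libraries lay above all WT libraries in none of the windows (0.0%) and below all of them in 5 (2.37%). Among these was chromosome X at 400001 to 450000, with -0.08, 0.09 and 0.03 in the mutant and at least 0.19 in WT. The correlation of the asymmetry with the mean of the mutant libraries was 0.51 for WT replicate 6 and 0.63 to 0.73 for each mutant library against the others.

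Most nuclear positions of each WT library had no value in a given mutant library, but those that did were shared more often on the same strand than on the opposite one. Of the 36638 nuclear positions of WT replicate 6, 38.7% also had a value in mutant replicate 3, with a Wilson 95% interval of 38.2% to 39.2%. At the same coordinates on the opposite strand, the share was 10.5% (10.2% to 10.8%), close to the 11.05% of all nuclear positions and strands that mutant replicate 3 covers. Of the 8234 positions of WT replicate 3, 20.4% were in mutant replicate 3 on the same strand and 3.90% on the opposite strand, which is below that library's coverage. In all 18 pairs of a WT and a mutant library the same-strand share was the higher, by a factor of 1.66 to 16.3. The factor of 16.3, for WT replicate 3 in mutant replicate 1, set 13.5% against 0.826% on the opposite strand, where mutant replicate 1 covers 2.55% of positions.

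Sharing of nuclear positions followed the mitochondrial sets. Mutant replicate 2, the mutant library of set B, held 24.9%, 23.0% and 15.3% of the positions of WT replicates 2, 4 and 5 and 10.86%, 7.52% and 10.95% of those of WT replicates 1, 3 and 6. Mutant replicate 1, of set A, held 13.3%, 13.5% and 12.3% of the positions of WT replicates 1, 3 and 6 and 6.57%, 6.67% and 10.1% of those of WT replicates 2, 4 and 5. In both mutant libraries, every WT library of the same set lay above every WT library of the other set. Mutant replicate 3 was not divided in this way, with 19.2% to 21.9% of the positions of set B and 19.4% to 38.7% of those of set A. The labels give no library indexes, so reads carried over between libraries cannot be told apart from ribonucleotides present in both, here and among the few nuclear reads of WT.

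**Figure D4:**
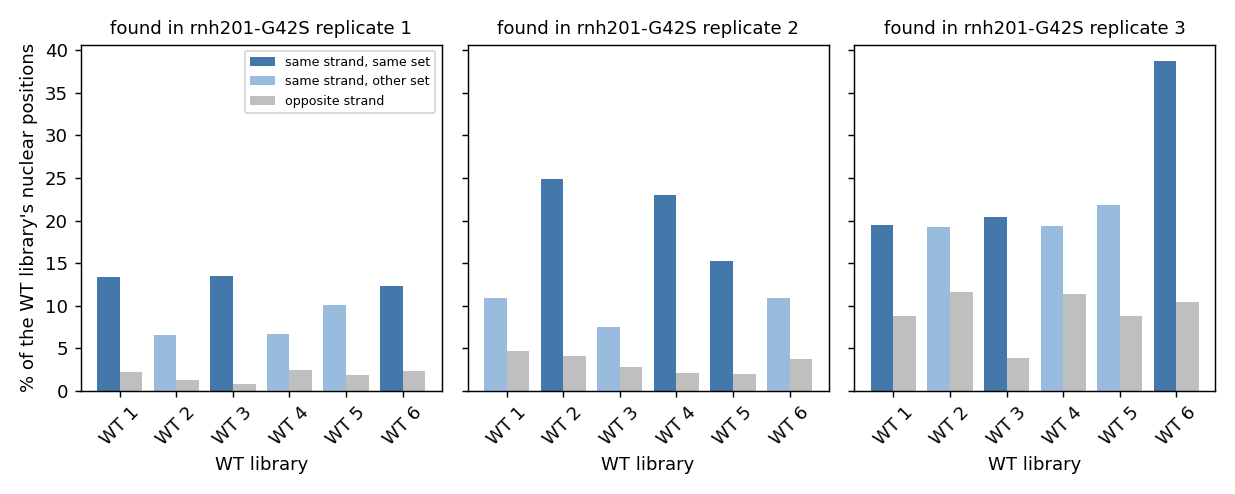
Share of the nuclear positions of each WT library (horizontal axis) that also had a value in mutant replicate 1, 2 or 3 (panels), on the same strand (blue, dark where both libraries are in the same set and light where they are not) and on the opposite strand (grey). The blue bars exceed the grey bars in all 18 pairs, and in the panels of replicates 1 and 2 the dark bars exceed all light bars.

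Along mitochondrial DNA, libraries resembled each other by set and not by genotype. Over 100-bp windows by strand, pairs of the same set and different genotypes had a mean Spearman correlation of 0.64 (9 pairs, 0.45 to 0.77), and pairs of the same set and genotype one of 0.55 (7 pairs, 0.21 to 0.76). Pairs of different sets averaged 0.26 across genotypes (9 pairs) and 0.25 within a genotype (11 pairs). Mutant replicate 2 correlated with WT replicate 2 at 0.76 and with the other mutant libraries at 0.32 and 0.33. Mutant replicate 3 correlated with WT replicate 6 at 0.77 and with mutant replicate 1 at 0.76. By positions, 89.2% of the mitochondrial positions of WT replicate 2 had a value in mutant replicate 2 (Wilson 95% interval 88.3% to 90.0%), against 25.5% on the opposite strand. Of the positions of WT replicate 1, of set A, 23.8% did, against 20.03% on the opposite strand. Because the sets were formed from these same profiles, the split between sets is a description. Within them, WT replicate 3 correlated with WT replicate 5, of the other set, at 0.63 and with WT replicate 1 at 0.21.

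**Figure D5:**
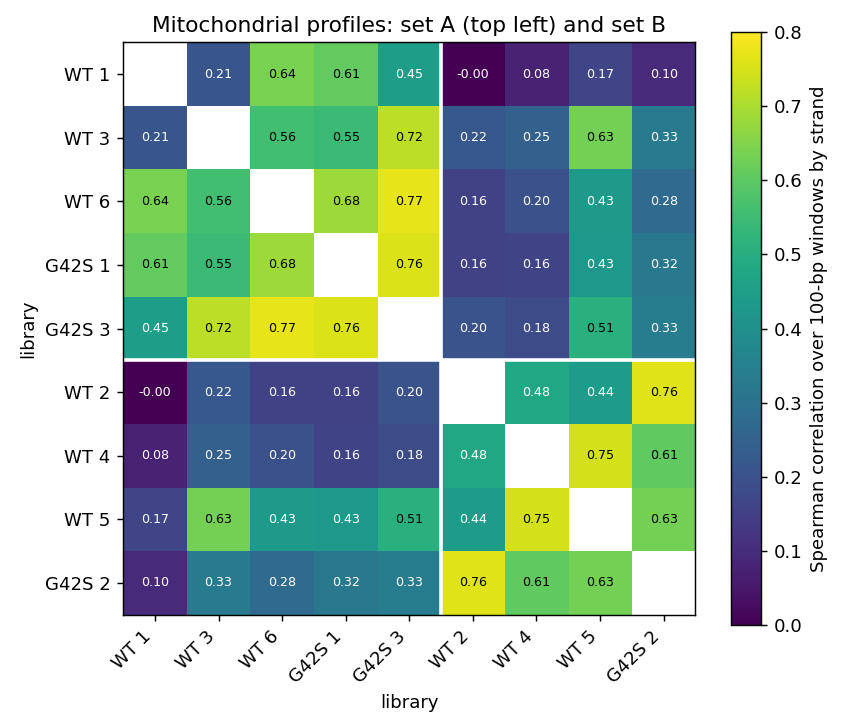
Spearman correlations between the mitochondrial profiles of the 9 libraries (100-bp windows by strand), with set A in the upper left block and set B in the lower right. Mutant replicate 2 sits in the block of WT replicates 2, 4 and 5, and its correlation with WT replicate 2, 0.76, is above those with the other mutant libraries, 0.32 and 0.33.

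No 1-kb window of the mitochondrial chromosome differed by strand between the genotypes past limma's adjusted p of 0.05, of 172 tested (0.0% higher, 0.0% lower). At an unadjusted p under 0.05, 3 (1.74%) were higher and 5 (2.91%) lower in the mutant. The median SE of a difference was 0.66 and the median half-width of its 95% interval was 1.40, so that no window's interval lay between -1 and 1. The median difference over all windows was -0.24.

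Among windows higher in the mutant, plus strand 20001 to 21000 had enrichment factors of 6.19, 4.23 and 4.503 in the mutant and 0.521, 0.975, 1.75, 2.90, 2.31 and 2.79 in WT replicates 1 to 6. The groups did not overlap, and the log2 difference was 1.54 ± 0.63 (SE), with a limma unadjusted p of 0.0259 and an adjusted p of 0.774. With each detected position counted once, in place of its reads, the difference was 0.27. The windows at 33001 to 34000 of the plus strand and 16001 to 17000 of the minus strand did not overlap either and differed by 1.06 and 1.26. Those at 61001 to 62000 and 74001 to 75000 of the minus strand, with 1.34 and 1.73, overlapped and were highest in mutant replicate 1, at 9.39 and 8.03.

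Among windows lower in the mutant, plus strand 35001 to 36000 had enrichment factors of 0.529, 0.283 and 0.2999 in the mutant and 2.62, 0.884, 0.790, 2.47, 1.02 and 0.943 in WT. The groups did not overlap and the log2 difference was -1.60 ± 0.56 (SE), with an unadjusted p of 0.0110. Within sets A and B the difference was -1.44 and -1.89. Counted once per position it was -0.36. The plus-strand window at 3001 to 4000 was also without overlap, at 0.110 to 0.140 in the mutant and 0.1997 to 0.689 in WT, and differed by -1.24. The minus-strand windows at 2001 to 3000 and 56001 to 57000 and the plus-strand window at 66001 to 67000 differed by -1.34, -1.34 and -1.37, with overlap. Mutant libraries lay above all WT libraries in 3 windows (1.74%) and below all of them in 4 (2.33%).

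At single mitochondrial positions, 98428 positions and strands had a value in at least 1 of the 9 libraries, 9655 in all mutant libraries, 495 in all WT libraries and 462 in all 9. The 462 are limited to positions seen in WT replicate 2, which had a value at only 5025, 57.2% of them from a single read. None of the 462 passed limma's adjusted p of 0.05 (0.0% higher, 0.0% lower). At an unadjusted p under 0.05, 7 (1.52%) were higher and 16 (3.46%) lower in the mutant. Differences at single positions are of log2 enrichment factors with no added constant.

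The 5 positions with the lowest p among those lower in the mutant lay together on the plus strand, between 31589 and 31606. They are neighbours, so they are not independent sites. At position 31596 the enrichment factor was 3.21, 3.63 and 0.177 in the mutant and 11.7, 25.0, 6.41, 10.1, 16.3 and 6.41 in WT, without overlap. The log2 difference was -3.14 ± 1.05 (SE), with an unadjusted p of 0.00877 and an adjusted p of 0.734. Without mutant replicate 3, which was the lowest there, the difference was -1.72. Over the 18 bases of this stretch the plus strand held 0.0768%, 0.222% and 0.0111% of the mitochondrial signal in mutant replicates 1, 2 and 3 and 0.425%, 0.375%, 0.208%, 0.246%, 0.289% and 0.256% in WT replicates 1 to 6. Mutant replicate 2 was above the lowest WT library, and the other mutant libraries were below all WT libraries. Positions 31602 and 31591 of this stretch were also among the 10 highest of WT.

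Among positions higher in the mutant, minus-strand position 53687 was the 1 of the 5 with the lowest p where the groups did not overlap. Its enrichment factor was 13.1, 8.24 and 14.6 in the mutant and 0.873 to 5.62 in WT, and the log2 difference was 2.04 ± 0.90 (SE). The ends of that WT range, in WT replicates 1 and 2, each came from a single recovered read. Positions 73732, 7383 and 16712 of the minus strand and 7590 of the plus strand differed by 2.75, 2.87, 2.47 and 2.43, with overlap. Over the 462 positions, mutant libraries lay above all WT libraries at 13 (2.81%) and below all of them at 3 (0.649%).

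Many of the strongest mitochondrial positions were strong in some libraries and weak in others of the same genotype. Exceptions within WT were 31602 and 31591 of the plus strand, with enrichment factors of at least 42.4 and 33.4 in all WT libraries. Mutant replicates 1, 2 and 3 had 27.5, 67.6 and 3.63 at 31602 and 8.90, 49.0 and 0.475 at 31591. Of the 10 highest by mutant mean, 5 lay on the minus strand between 735 and 760. These 26 bases held 5.57% of the mitochondrial signal in mutant replicate 2, and 0.0550% and 0.0150% in mutant replicates 1 and 3. In WT the same bases held 5.15% in replicate 4, 3.19% in replicate 5, 1.78% in replicate 3 and 0.788% in replicate 2, but 0.00362% in replicate 1 and 0.0587% in replicate 6. All WT libraries of set B lay above WT replicates 1 and 6 of set A, and WT replicate 3 of set A lay among those of set B.

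Another stretch strong in the mutant, minus strand 16712 to 16732, held 1.58%, 0.0777% and 0.431% of the signal in mutant replicates 1, 2 and 3 and from 0.0150% to 0.612% in WT. Of the 10 highest positions by WT mean, 6 lay on the plus strand between 53753 and 53774. These 22 bases held 4.82% of the signal in WT replicate 2 and from 0.0243% to 0.539% in the other WT libraries. In the mutant they held 0.0759%, 0.467% and 0.0658%, again highest in replicate 2. For these stretches the genotypes overlapped, and the values were chosen as the highest, so no test is given.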

How the data were processed

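The deposited values are a ratio, an enrichment factor per position and strand, made by the authors from reads trimmed with cutadapt, per the submitters' processing notes, and aligned to sacCer2 with Ribose-Map, per the design text. How the ratio was formed is not given in the sources used here. It was worked out from the values, taken as whole read numbers over whole DNA depths. A fraction was found for 100% of WT and rnh201-G42S values (relative tolerance 1e-09). Nearly any value allows one, so that share does not test the form. The read number was chosen to bring the depth nearest to that of neighbouring values. Depths recovered on both strands of a position were the same at 100% of such positions in WT, only 52 in nuclear and 20578 in mitochondrial DNA. In rnh201-G42S they were the same at 99.99% in nuclear and 99.98% in mitochondrial DNA. Rows were merged by position and strand (8216036 rows, 6633594 positions), with 0 value columns unused. Base composition and genes were not analysed here, for want of a genome of this build.

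Library-wide measures and chromosomes were compared with two-sided exact permutation tests (scipy 1.17.1, 84 arrangements, smallest p 0.0238). For windows and mitochondrial positions, limma 3.58.1 (R 4.3.3) was fitted to log2 values of the 9 libraries, with 0.1 added in windows and none at positions, and to the strand asymmetry itself, with Benjamini-Hochberg adjustment over all features tested. Windows covering under 50% of their width at chromosome ends were left out. Named windows and positions were the 10 largest differences each way among those past the threshold or, as none was, the 5 lowest p each way. The highest mitochondrial positions by mean were also named. Recovery, limma and the permutation test were tested on simulated data. The comparison, lists and tests were chosen with earlier results of these data known. Replicates were numbered in accession order. Alternatives left out libraries or changed windows, filters, added constants, scaling and fits.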

Additional observations from a re-analysis of the deposited data

Results flagged for a closer look

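Of 37 measures over the 6 WT libraries that were tested for a sample far from the others (Dixon's test, which flags about 1 in 20 groups by chance), 8 had such a sample, WT replicate 2 in 7 of them and WT replicate 1 in the other. Both have the fewest nuclear reads, 769 and 1059. In WT replicate 2 the plus strand held 35.65% of the nuclear signal, against 49.32% to 50.79% in the other WT libraries. Its mean enrichment factor on chromosome I was 14.3, against 0.733 to 1.88. It was lower than the others on chromosome VIII (0.489), chromosome IX (0.468), chromosome X (0.543) and chromosome XIV (0.552). The nuclear values of a library are scaled to a fixed total, so a high value on chromosome I lowers the other chromosomes. These flags are therefore not independent of each other. The plus-strand share of WT replicate 2 on chromosome XI was 31.6%, against 47.2% to 51.9%. In WT replicate 1 the plus-strand share on chromosome XIII was 71.6%, against 47.5% to 51.9%.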

How the results depend on the processing

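No paired analysis was possible because replicate numbers follow accession order. The log2 density ratio, the log2 number of equally used nuclear positions and the chromosome XII difference kept their direction in every alternative run. When single libraries were left out they ranged from 7.65 to 8.37, 3.60 to 5.51 and 0.34 to 0.40. The chromosome XII difference of 0.37 was 0.08 on reads and 0.02 with each position counted once. Their adjusted p was above 0.05 throughout, and without a mutant library the permutation test cannot go below p = 0.0714. The count of called features was 0 in every alternative for chromosomes, windows, strand asymmetry and positions. At an unadjusted p under 0.05, limma found at most 34 of 240 nuclear windows, 18 of 211 for strand asymmetry and 29 of 172 mitochondrial windows. Those counts came from library quality weights. Leaving aside set B, with 1 mutant library, the fewest were 1 of 240, 0 of 211 and 0 of 172. For mitochondrial positions the number tested varied. It found 2 of 20 in the fit of all 17 libraries and 209 of 4367 with a value in at least 4 WT libraries. Where 462 were tested, again without set B, it found 8 to 75.

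Differences near 0 changed sign. For the nuclear plus-strand share (0.0121 to 3.04 with single libraries left out) it was -0.162 among library numbers in the 200s and -0.0430 within set A. The mitochondrial plus-strand share ranged from -1.03 to 0.614 with single libraries left out. It was -0.0300 without the 2 WT libraries of fewest nuclear reads and -0.535 within set B. The log2 number of equally used mitochondrial positions ranged from -0.621 to 0.547. It was -0.120 without those 2 libraries, -0.878 among the 200s, -0.0269 within set A and -0.107 within set B. The cause was not tested. WT depth limits the nuclear comparisons. The planned base composition and mitochondrial gene comparisons were not run.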

Other observations

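At 460001 to 470000 of chromosome XII, within the reference copies of the ribosomal DNA, none of the 6 WT libraries had a value, which with 38581 nuclear reads in WT replicate 6 allows up to 0.00778% of them. Mutant replicates 1, 2 and 3 had values at 23, 15 and 72 positions and strands there, all between 460065 and 460665. Values were also present in 3 of the 5 rnh203-K46W and 1 of the 3 rnh201-null libraries. Over 460001 to 470000 the mean enrichment factor was 0.0275, 0.00919 and 0.0173 in mutant replicates 1, 2 and 3. The recovered median DNA depth of their positions there was 16231, 15534 and 16261, beside a nuclear median of 162. The recovered reads there were 0.232%, 0.0681% and 0.147% of their nuclear reads, but are less certain because depth changes steeply. Whether the genotypes differ in this stretch was not tested. Without the 50 kb that hold these copies, the mean enrichment factor of chromosome XII was 1.22, 1.28 and 1.25 in the mutant and 0.872 to 1.06 in WT.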
